A study of Mus musculus with 22 samples.

Results

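The immediate early genes examined here are Fos, Fosb, Jun, Junb, Egr1, Arc, Npas4, Nr4a1, Dusp1 and Btg2. They were taken by symbol from the count tables of the mouse striatum, with 55341 rows, and of mouse white adipose tissue (WAT), with 47643 rows, and all 10 were found in both. Fos, Fosb, Jun and Junb are subunits of the AP-1 transcription factor, Egr1 is a zinc finger factor, Npas4 a neuronal basic helix-loop-helix factor and Nr4a1 an orphan nuclear receptor. Arc is a protein of the synapse that is needed for lasting plasticity, Dusp1 a phosphatase that switches off MAP kinases, and Btg2 an antiproliferative protein that promotes the decay of messenger RNA.

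Immediate early genes are switched on within minutes of a stimulus without the need for new protein synthesis, and their short-lived transcripts soon fall again. Calcium entry, cyclic AMP and MAP kinases reach them through CREB and serum response factor, and in the striatum dopamine and synaptic activity are the best known triggers. In adipose tissue they respond to growth factors, adrenergic signals, stress and the handling of the tissue.

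RNA was sequenced from 22 tissue samples, 10 of striatum and 12 of WAT. All came, per the labels, from wild-type male C57BL/6J mice of 8 weeks. The controls are labelled hypothyroid after 2 weeks of propylthiouracil (PTU), an inhibitor of thyroid hormone synthesis, with 2 libraries of striatum (replicates 3 and 6) and 4 of WAT. The other libraries are labelled as treated with thyroid hormone (TH) for 12 or 24 h in striatum and 6 or 24 h in WAT, with 4 libraries in each group. The study's methods describe a single injection of T3 and T4 into the peritoneum, and the series' design text calls the animals hypothyroid. The labels of the TH libraries name no PTU, and the methods list PTU in the food for WAT but not for striatum, so what the TH animals of the striatum received before the injection is not known here. A control injection is not named, so the hormone cannot be told apart from the injection itself, nor the time after it from the hour of the day at which tissue was taken. No label ties a library to a particular animal, so p-values measure the spread between these libraries.

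Libraries held 8056443 to 10163849 counts in striatum and 17298747 to 26963433 in WAT. In striatum, 12 genes of projection neurons were all present, but their summed normalised count was 3510 in TH 24 h replicate 2 against 24784 to 64970 in the other libraries, and 10 genes of cortical excitatory neurons summed to 27487 there, the highest of all. Genes of the Y chromosome were nearly silent in 6 striatum libraries despite the label male: PTU replicate 6, TH 12 h replicate 1 and all 4 of TH 24 h. In WAT the adipocyte genes Adipoq, Plin1 and others summed to 328192 to 690090, and skeletal muscle genes to 866 to 492733. In these bulk samples, fewer cells of a type and less RNA per cell cannot be told apart.

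Levels are given as normalised counts, which are counts scaled to a common library size within a tissue. To compare genes with each other, counts were divided by the length of the merged exons and by the library size (reads per kilobase per 1e6 counts, RPKM). On that scale Egr1 was the highest member in the striatum of PTU mice, at 71.0 (53.6 and 88.4 in the 2 libraries). Nr4a1 followed at 16.2, Jun at 10.7, Arc at 9.53, Dusp1 at 6.59, Npas4 at 6.40, Junb at 4.51, Btg2 at 3.61, Fos at 1.87 and Fosb at 0.614. Neighbours in this order did not overlap except Jun with Arc, Arc with Dusp1 and Dusp1 with Npas4. In WAT of PTU mice Btg2 led with a mean RPKM of 17.6 ± 7.55 (SD, n = 4), followed by Egr1 at 14.3, Dusp1 at 11.8, Jun at 9.75, Fos at 7.62, Nr4a1 at 7.04 and Junb at 5.74. The ranges of all neighbours among these overlapped. Arc at 0.686, Fosb at 0.358 and Npas4 at 0.0477 lay lower. The range of Fosb overlapped with those of Arc and Npas4, and those of Arc and Npas4 did not overlap with each other. The 2 tables came from different extractions, so levels were not tested between tissues.

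The first comparison asks which members changed in the striatum 12 h after TH. Jun and Btg2 were upregulated, and the other 8 members did not pass the test. Jun, the AP-1 subunit that binds DNA also as a homodimer, had normalised counts of 291 and 348 in the PTU libraries and of 594, 788, 630 and 663 at 12 h. Its log2 change was 1.06 ± 0.19 (SE; n = 2 and 4; adjusted p = 0.0310, edgeR quasi-likelihood test). Btg2 had 97.5 and 89.0 in the PTU libraries and 146, 210, 232 and 196 at 12 h. Its log2 change was 1.07 ± 0.19 (adjusted p = 0.0306, edgeR). For both genes every library at 12 h lay above both PTU libraries. Of all 15827 genes tested, 0.96% passed in this comparison, 0.733% as higher.

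**Figure D1:**
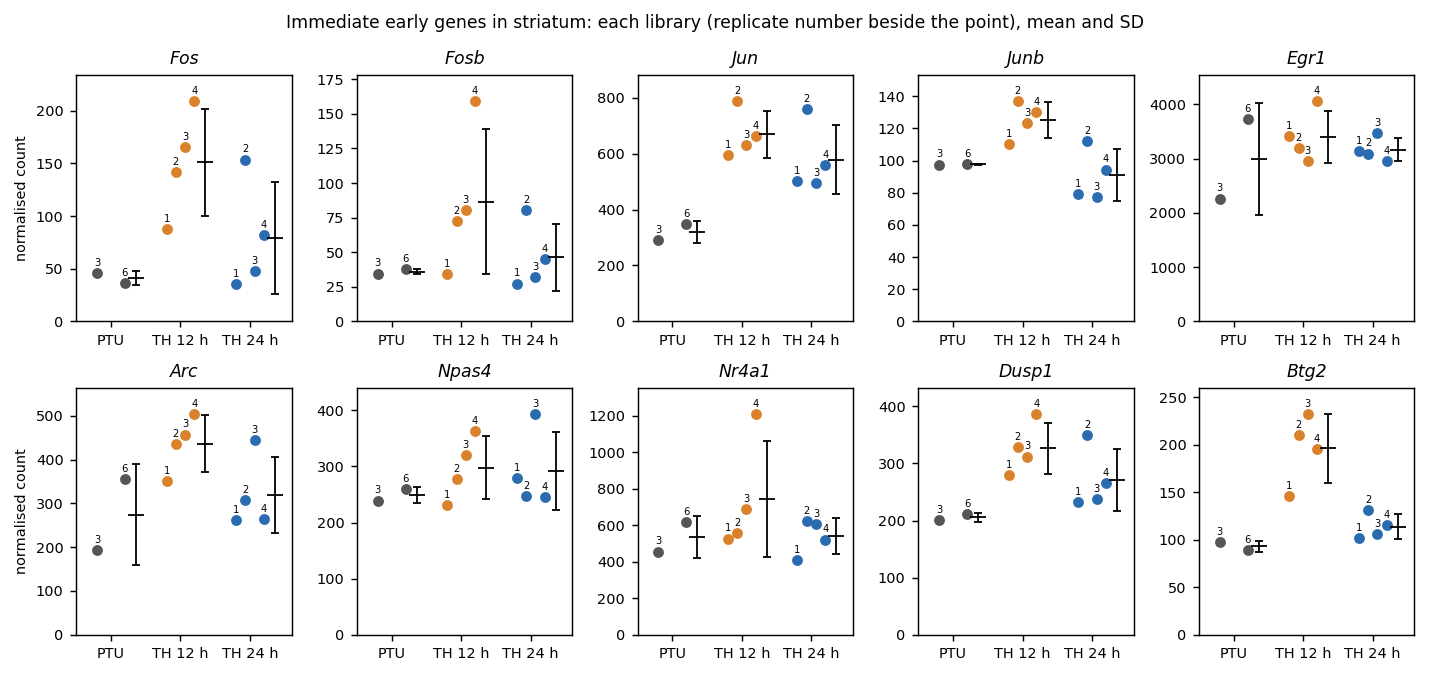
Normalised counts of the 10 immediate early genes in each striatum library of the PTU, TH 12 h and TH 24 h groups, with the replicate number above each point and the mean ± SD as a black bar beside each group (n = 2, 4 and 4). Jun and Btg2 are higher in all 4 libraries at 12 h than in both PTU libraries, and Btg2 at 24 h lies between 102 and 131.

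These 2 calls were not stable to single libraries. Both were lost in 6 of the 10 fits that left out 1 library (PTU replicate 3 or 6, TH 12 h replicate 2, 3 or 4, or TH 24 h replicate 4), with adjusted p up to 0.317 for Jun and 0.301 for Btg2, while the log2 change stayed at 0.93 to 1.20 for Jun and at 0.97 to 1.19 for Btg2. Without TH 24 h replicate 2, the library low in projection neuron genes, Fos (adjusted p = 0.0200) and Dusp1 (adjusted p = 0.0190) passed as well as Jun and Btg2 (edgeR). In that fit 1257 of all 15857 genes passed, beside 152 of 15827 with all libraries.

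The other 8 members had log2 changes between 0.19 and 1.87 at 12 h, all above 0, as were 51% of all genes. The median over the 10 members was 0.67, beside 0.0076 over all genes tested. Fos, the partner of Jun in AP-1, had 46.1 and 36.6 in the PTU libraries and 87.8, 142, 166 and 209 at 12 h, a log2 change of 1.87 ± 0.55 that missed the threshold (adjusted p = 0.102, edgeR). All 4 libraries at 12 h exceeded both PTU libraries, but they differed from each other by 2.38-fold. Fosb had 34.6 and 37.6 in the PTU libraries and 34.0, 72.4, 80.7 and 159 at 12 h. The groups overlapped through replicate 1, and the log2 change of 1.26 ± 0.57 did not pass (adjusted p = 0.246, edgeR). Junb, a weaker activator of the same family, had 97.5 and 97.9 in the PTU libraries and 110 to 137 at 12 h. Its log2 change of 0.36 ± 0.17 did not pass (adjusted p = 0.260, edgeR), although the groups did not overlap.

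Dusp1 had 200 and 211 in the PTU libraries and 279, 329, 312 and 386 at 12 h. The groups did not overlap, and its log2 change of 0.67 ± 0.18 missed the threshold (adjusted p = 0.0885, edgeR). Arc had 193 and 355 in the PTU libraries and 350, 435, 457 and 503 at 12 h, so that the groups met at about 350. Its log2 change was 0.67 ± 0.27 (adjusted p = 0.1997, edgeR). Egr1, Npas4 and Nr4a1 overlapped between the groups. Egr1 ranged from 2951 to 4062 at 12 h beside 2263 and 3727 in the PTU libraries, and Npas4 from 231 to 362 beside 239 and 259. Nr4a1 ranged from 528 to 1209 beside 456 and 616, with the highest value in replicate 4. In all, 5 of the 10 members (Fos, Jun, Junb, Dusp1 and Btg2) did not overlap with the PTU group, which with 2 control libraries also held for 36.4% of all genes, 18.9% as higher.

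The sequences before the start sites of the 2 genes that passed at 12 h, and of Fos and Dusp1, which passed without TH 24 h replicate 2, are shown to set them beside each other. They are the 250 bases upstream of the RefSeq start on GRCm38.p6, written 5′ to 3′ on the strand of the gene. Capitals mark TGACGTCA (the cyclic AMP response element, CRE), TGACG (its half-site, which the full element also holds), the CArG box of serum response factor and TATAAA, on either strand.
Jun, chr4:95052223-95052472, minus strand: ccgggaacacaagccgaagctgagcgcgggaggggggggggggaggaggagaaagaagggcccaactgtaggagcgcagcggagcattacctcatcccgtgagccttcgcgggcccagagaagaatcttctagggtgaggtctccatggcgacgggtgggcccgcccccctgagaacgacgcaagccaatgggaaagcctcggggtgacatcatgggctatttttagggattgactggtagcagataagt
Btg2, chr1:134079156-134079405, minus strand: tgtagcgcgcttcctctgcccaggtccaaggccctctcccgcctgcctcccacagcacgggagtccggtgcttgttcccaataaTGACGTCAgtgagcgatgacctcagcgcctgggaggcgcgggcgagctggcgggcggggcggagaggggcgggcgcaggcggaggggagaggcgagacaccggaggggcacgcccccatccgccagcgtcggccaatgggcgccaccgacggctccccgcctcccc
Fos, chr12:85473640-85473889, plus strand: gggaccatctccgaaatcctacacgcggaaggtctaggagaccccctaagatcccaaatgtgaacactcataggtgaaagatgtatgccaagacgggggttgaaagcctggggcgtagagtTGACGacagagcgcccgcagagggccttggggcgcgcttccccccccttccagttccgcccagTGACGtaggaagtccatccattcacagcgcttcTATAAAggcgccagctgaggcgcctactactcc
Dusp1, chr17:26508473-26508722, minus strand: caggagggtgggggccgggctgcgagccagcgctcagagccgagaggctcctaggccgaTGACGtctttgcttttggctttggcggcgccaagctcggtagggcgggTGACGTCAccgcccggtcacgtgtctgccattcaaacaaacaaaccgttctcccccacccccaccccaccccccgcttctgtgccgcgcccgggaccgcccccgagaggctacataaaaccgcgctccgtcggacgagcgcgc

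Btg2 held a full CRE that began 166 bases before the start and Dusp1 one at 143 bases, with a further half-site at 191 bases. Fos held half-sites at 129 and 66 bases and TATAAA at 33 bases, and no exact match to any of these was found in the window of Jun. Near matches, such as tgacatca in the Jun window, were not counted. None of the 4 windows held a CArG box, and bases further than 250 before the start were not searched. Among 32851 RefSeq windows of the same length, 1.55% held the full CRE, 17.8% a half-site, 1.47% a CArG box and 12.4% TATAAA. Windows of 8 of the 10 members were searched. Egr1 was left out of the search, and no window was available for Arc. The nuclear receptor half-site AGGTCA, searched on both strands, was found in the Btg2 window 150 bases before the start and in 14% of all windows. A DR4 element as bound by thyroid hormone receptors is that half-site in direct repeat with a spacer of 4 bases. It was in none of the 8 windows and in 0.0152% of all. Of these 8, 7 (all but Jun) held a CRE half-site, among them Fosb, Junb, Npas4 and Nr4a1, which did not pass at 12 h. The motif counts describe these letters only, and factor binding was not measured in these samples.

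Jun lies on GRCm38 chromosome 4 (95049034 to 95052222, minus strand), Btg2 on chromosome 1 (134075170 to 134079120, minus), Fos on chromosome 12 (85473890 to 85477273, plus) and Dusp1 on chromosome 17 (26505590 to 26562128, minus), per GENCODE M21. Arc lies on chromosome 15 (74669083 to 74672570, minus). Exons of Jun overlap the antisense transcript Junos, those of Junb overlap Prdx2 and those of Dusp1 overlap Ergic1, each on the opposite strand. The strand setting of the authors' counting is not given in the sources used here, so these 3 counts may include reads of the neighbour.

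At 24 h in the striatum no member passed against PTU, nor did any fall below both controls. Over all genes, 0.348% passed, 0.316% as higher. Of the 10 members 9 had a log2 change above 0, as had 53.1% of all genes. Jun had 501, 758, 494 and 560 at 24 h, all above both PTU libraries. Its log2 change was 0.85 ± 0.19 with an adjusted p of 0.108 by edgeR, and 0.00438 by DESeq2, which called Jun alone of the 10. Without TH 24 h replicate 2, which had the highest value, the log2 change was 0.68 (adjusted p = 0.0507, edgeR). Dusp1 (233 to 350) and Btg2 (102 to 131) also lay above both PTU libraries, with log2 changes of 0.40 ± 0.18 (adjusted p = 0.506, edgeR) and 0.28 ± 0.19 (adjusted p = 0.670, edgeR). These 3 of 10 members compare with 18.2% of all genes whose groups did not overlap, 9.7% as higher.

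The remaining members overlapped with PTU at 24 h. Fos had 35.2, 154, 47.6 and 82.3, so that the group spread over 4.36-fold with its top in replicate 2. Fosb ranged from 27.4 to 80.7 and Junb from 77.4 to 112, again highest in replicate 2. Egr1 ranged from 2962 to 3473, Arc from 261 to 444, Npas4 from 245 to 393 and Nr4a1 from 409 to 623. Their log2 changes lay between -0.11 for Junb and 0.94 for Fos, with adjusted p of 0.633 or more.

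Comparing 24 h with 12 h directly asks whether levels fell between the time points. All 10 members had a lower mean at 24 h, while 51.6% of all genes had a higher one. None passed, in a comparison in which edgeR passed 0% of the genes, 14.6% had an unadjusted p under 0.05 and DESeq2 called Btg2 among the members. Btg2 had 146 to 232 at 12 h and 102 to 131 at 24 h without overlap, a log2 change of -0.79 ± 0.15 (adjusted p = 0.122, edgeR, and 0.00281, DESeq2). It was the only member whose groups did not overlap, as for 8.3% of all genes, 3.87% as lower. Without TH 24 h replicate 2 its edgeR adjusted p was 0.0422, in a fit in which 78 of all 15857 genes passed. Fos had a log2 change of -0.93 ± 0.40 (adjusted p = 0.318, edgeR) and Junb of -0.46 ± 0.14 (adjusted p = 0.169, edgeR). The log2 change of Jun was only -0.21 ± 0.14 (adjusted p = 0.544, edgeR). Genes of the Y chromosome were nearly silent in all 4 libraries at 24 h but only in replicate 1 at 12 h. The time can therefore hardly be told apart from this difference between libraries. In TH 12 h replicate 1, Fosb (34.0), Npas4 (231) and Nr4a1 (528) lay below their 24 h means of 46.3, 291 and 540. The other members lay above theirs, among them Fos (87.8 and 79.7) and Jun (594 and 578).

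Marker genes of tissue composition also varied between the striatum libraries. The 10 cortical genes summed to 5947 and 9563 in the PTU libraries, 11698 to 17230 at 12 h and 7721 to 27487 at 24 h. Of the 2 controls, PTU replicate 3 had the higher cortical sum and the lower level of 8 of the 10 members, and it alone had Y-linked transcripts. The 12 projection neuron genes summed to 42546 and 61545, to 24784 to 39928 and to 3510 to 64970 in the same groups. At 12 h all 12 of the latter had a negative log2 change with a median of -0.87, 8 of the 10 cortical genes a positive one, and none of the 22 passed. All 10 members also had a log2 change above 0 at 12 h, so tissue composition and the hormone cannot be told apart here. With the difference of the 2 lists as a term in the model, Fos, Jun, Dusp1 and Btg2 passed at 12 h, Jun at 24 h, and Fos, Junb and Btg2 as lower at 24 h than at 12 h. Of all 15827 genes, 934, 322 and 826 passed with that term in the same order, beside 152, 55 and 0 without it. With that term and without TH 24 h replicate 2, an alternative added after seeing the data, Jun passed at 12 h (log2 change 0.95) and at 24 h (0.65), and Btg2 did not pass at 12 h (0.78, adjusted p = 0.100, edgeR). There 253 and 338 of all 15857 genes passed at 12 and 24 h.

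**Figure D2:**
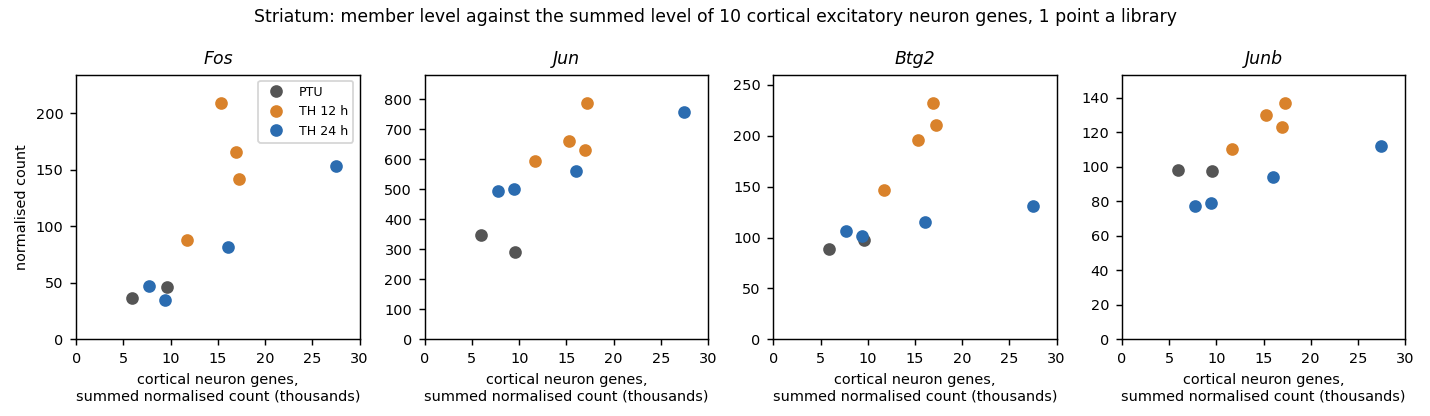
Normalised counts of Fos, Jun, Btg2 and Junb in the 10 striatum libraries against the summed normalised count of 10 cortical excitatory neuron genes in kilocounts, coloured by group. Fos in TH 24 h replicate 2, the library with the highest sum, was 154, while Btg2 at 24 h stayed between 102 and 131 over sums from 7721 to 27487.

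The Y-linked genes split the libraries in another way. Among the 4 libraries with these transcripts, Jun was at 291 in 1 PTU library and at 630 to 788 in 3 libraries at 12 h, and Btg2 at 97.5 and at 196 to 232. Among the 6 without them, Jun was at 348 in 1 PTU library, 594 in 1 library at 12 h and 494 to 758 at 24 h, and Btg2 at 89.0, 146 and 102 to 131. Both genes were higher at 12 h than under PTU within each kind of library, with 1 PTU library in each. The kind without these transcripts also held only 1 library at 12 h, so these values cannot decide the part of library kind. With the kind of library as a term, Btg2 passed at 12 h (log2 change 0.96, adjusted p = 0.0444, edgeR) and Jun did not (1.05, adjusted p = 0.0636, edgeR).

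Some libraries were the highest or lowest of their group for most members, and their order over all genes was not counted. TH 12 h replicate 1 was the lowest of its group for 9 of the 10 members and replicate 4 the highest for 7, and TH 24 h replicate 2 was the highest of its group for 7. The genes whose log2 level over the 10 libraries was most like the mean of the members were Trio, Ncor1, Tcof1, Dusp14 and Jup (Pearson r 0.95 to 0.96, from 11917 candidates). The points share library and tissue composition, so these correlations are a description.

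Related genes of the striatum were tested where 0.96% of all genes passed at 12 h and 0.348% at 24 h. Of 37 tested genes on a list of other early response genes, Ier5 alone, itself an immediate early gene, passed, at both times. Its mean rose from 106 under PTU to 200 at 12 h (log2 change 0.91 ± 0.16, adjusted p = 0.0307, edgeR) and 211 at 24 h (0.99 ± 0.16, adjusted p = 0.0349, edgeR). Its call was kept in 5 of 10 fits at 12 h and 2 of 10 at 24 h that left out a library, and its adjusted p reached 0.316 and 0.562, both without PTU replicate 3. With the Y-linked library type as a term Ier5 passed at neither time (adjusted p = 0.0645 and 0.102, edgeR), nor at 24 h with the 2 groups alone (0.179). None of the 19 tested relatives of the members (other Fos, Jun, Egr, Nr4a, Npas, Dusp and Btg genes), 26 upstream kinases and transcription factors or 13 partners passed at either time. The medians of the log2 change of these 3 lists were 0.24, 0.039 and 0.11 at 12 h, beside 0.0076 over all genes, and their ranges were -0.30 to 1.06, -0.59 to 0.38 and -0.51 to 0.68.

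In WAT, Arc was the member that changed, and it rose at each step. Its normalised counts were 50.9, 32.3, 47.8 and 49.2 in the PTU libraries, 149, 105, 84.6 and 87.0 at 6 h, and 175, 371, 211 and 253 at 24 h. The 3 groups did not overlap. The log2 change against PTU was 1.23 ± 0.26 at 6 h (n = 4 and 4; adjusted p = 0.0156, edgeR) and 2.48 ± 0.26 at 24 h (adjusted p = 9.04e-05, edgeR), or 5.58-fold. Between 6 and 24 h it rose again by 1.25 ± 0.25 (adjusted p = 0.0124, edgeR). Over all 17928 genes tested, 7.23% passed at 6 h (4.18% as higher), 17.1% at 24 h (7.45% as higher) and 7.41% between the 2 times (3.07% as higher). Groups did not overlap for 13.9%, 19.3% and 21.8% of all genes, with 7.85%, 8.99% and 10% as higher.

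**Figure D3:**
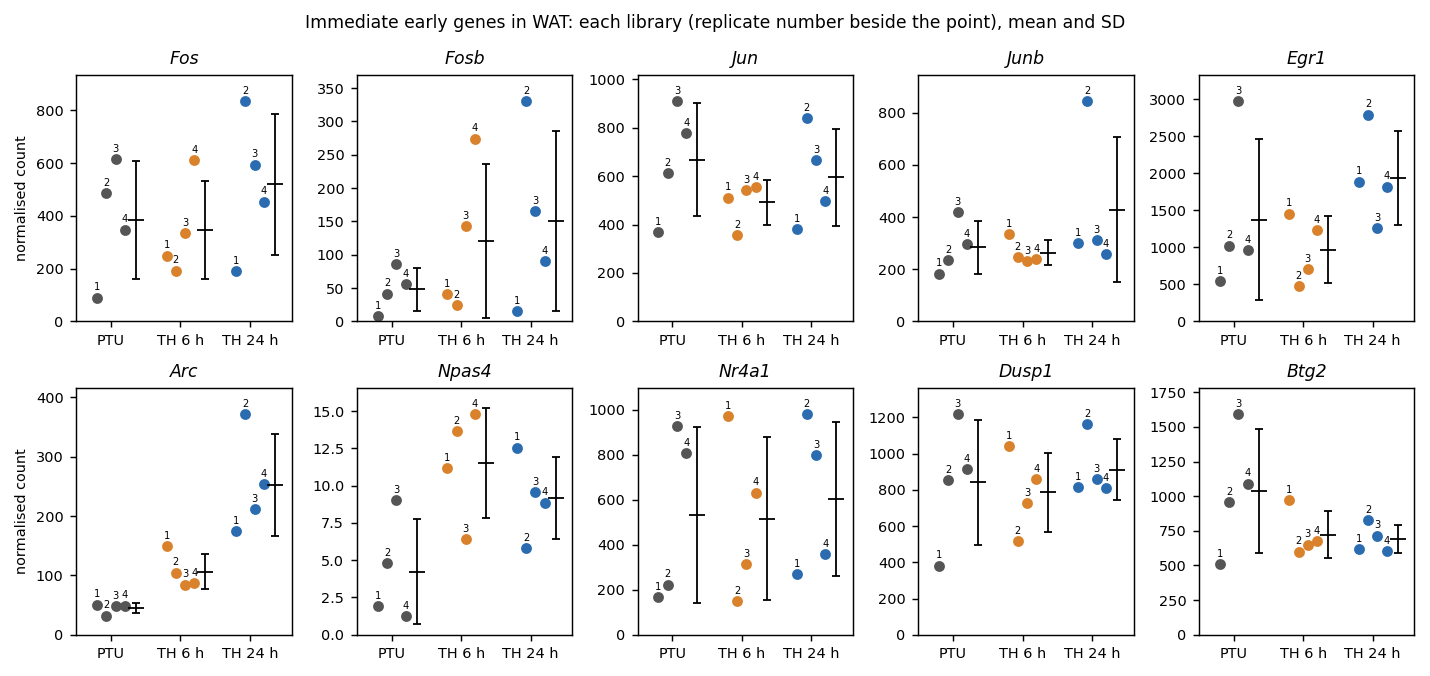
Normalised counts of the 10 immediate early genes in each WAT library of the PTU, TH 6 h and TH 24 h groups, with the replicate number above each point and the mean ± SD as a black bar beside each group (n = 4 each). Arc rises from 32.3 to 50.9 through 84.6 to 149 up to 175 to 371 without overlap, whereas the groups of the other genes overlap.

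The call of Arc at 6 h was lost without PTU replicate 2, its lowest library (log2 change 1.10, adjusted p = 0.0524, edgeR), and the call between 6 and 24 h was lost with a skeletal muscle score as a term (1.09, adjusted p = 0.0959, edgeR). At 24 h against PTU it passed in every fit that left out a library (2.23 to 2.62, adjusted p up to 0.000501, edgeR). Raw counts of Arc were 27 to 53 under PTU and 181 to 383 at 24 h. In RPKM, Arc in WAT was 3.85 ± 1.30 (SD, n = 4) at 24 h, below every other tested member of that group except Fosb at 1.12 ± 1.01.

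Other gene groups moved in the same libraries. Of these, only the muscle and leukocyte genes were entered as terms in the fits, as scores. With either score Arc passed at 6 h and at 24 h against PTU, and between the times it passed with the leukocyte score only. The part of the other groups in the result for Arc was not tested. The 6 heat shock genes summed to 6782 to 7354 under PTU, 6295 to 8865 at 6 h and 9650 to 21079 at 24 h, and 4 of the 6 passed as higher at 24 h against PTU. The 16 circadian clock genes summed to 7838 to 8421, 15278 to 18569 and 5278 to 5850, with 8 called higher and 4 lower at 6 h. Adipocyte genes summed to 526157 to 690090 under PTU and 328192 to 429362 at 24 h, where 6 of 8 passed as lower. The 6 brown adipocyte genes summed to 1678 to 3058, 5002 to 9705 and 7114 to 21340, with 3 called higher at 6 h and 4 at 24 h against PTU. The 9 glucocorticoid response genes summed to 6556 to 13164, 11216 to 12796 and 9724 to 92738, with 1 and 2 called higher. The 6 genes of stratified epithelium summed to 91.0 to 534, 48.3 to 3892 and 14.5 to 24.3, and 5 of them passed as lower at 24 h than at 6 h. Muscle genes summed to 1971 to 492733, 866 to 89075 and 35138 to 259276, and leukocyte genes to 9570 to 14724, 8290 to 16503 and 13127 to 16004. The 10 cortical neuron genes summed to 79.5 to 217 in WAT and the striatal projection neuron genes to 1031 to 2564. At 24 h against PTU, 1 gene of the former passed as lower, and 1 of the latter as higher and 1 as lower.

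The other 8 tested members of WAT did not pass at either time, with adjusted p of 0.246 or more at 6 h and 0.157 or more at 24 h. Over the 9 tested members, 2 log2 changes were above 0 at 6 h and 7 at 24 h, beside 46.2% and 49.7% of all genes, and between the times 8 were, beside 51% of all genes. The libraries of these 8 genes differed widely within groups. Fos had 90.3, 487, 614 and 348 under PTU, 249, 192, 334 and 611 at 6 h and 192, 835, 594 and 454 at 24 h. The 3 groups of Fos covered nearly the same range, and its log2 changes were -0.15 ± 0.54 and 0.43 ± 0.54. Fosb had 7.69, 41.9, 85.7 and 56.6 under PTU, 41.4, 24.1, 144 and 274 at 6 h and 15.4, 331, 166 and 90.7 at 24 h. The ratio of its highest to its lowest library was 11.2 under PTU and 21.4 at 24 h, and its log2 change of 1.65 ± 0.90 at 24 h did not pass (adjusted p = 0.228, edgeR).

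Jun, called in striatum at 12 h, had means of 667 ± 233 under PTU, 491 ± 91.9 at 6 h and 596 ± 200 at 24 h in WAT (SD, n = 4 each). The groups overlapped, with a log2 change of -0.44 ± 0.28 at 6 h. Btg2 had 510 to 1591 under PTU, 599 to 970 at 6 h and 601 to 828 at 24 h. Its log2 changes were -0.52 ± 0.27 (adjusted p = 0.246, edgeR) and -0.59 ± 0.27 (adjusted p = 0.157, edgeR). Without PTU replicate 1, which had the lowest Btg2 of the controls, both passed as lower, at -0.74 and -0.82. In that fit 1898 and 4264 of all 17874 genes passed at 6 and 24 h, beside 1296 and 3060 of 17928 with all libraries.

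Junb had 183 to 419 under PTU, 230 to 333 at 6 h and 299, 845, 312 and 258 at 24 h, so that the mean at 24 h rested on replicate 2. Its log2 change against PTU was 0.59 ± 0.36 with all libraries and 0.03 without that library. Egr1 had 546 to 2975 under PTU, 476 to 1455 at 6 h and 1258 to 2791 at 24 h. Its change between 6 and 24 h was 1.00 ± 0.48 (adjusted p = 0.225, edgeR) with overlapping groups. Nr4a1 ranged from 168 to 927, from 150 to 971 and from 270 to 979 in the same order, and Dusp1 from 381 to 1216, from 516 to 1039 and from 811 to 1164. For neither gene did a log2 change against PTU exceed its SE.

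Npas4, which is largely restricted to neurons, fell under the filter in WAT. Its raw counts were 2, 4, 10 and 1 under PTU, 10, 17, 6 and 18 at 6 h and 13, 6, 9 and 8 at 24 h. The mean normalised count was 4.24 ± 3.54, 11.5 ± 3.71 and 9.19 ± 2.76 (SD, n = 4 each). The exact two-sided permutation p was 0.0571 at 6 h and 0.0857 at 24 h against PTU, and 0.371 between them, where the smallest possible value is 0.0286 (Benjamini-Hochberg adjusted over the 3 comparisons: 0.129, 0.129 and 0.371, exact permutation test). No difference passed the test, which does not show that the levels were equal.

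In WAT too, some libraries were the highest or lowest of their group for most members, and their order over all genes was not counted. PTU replicate 3 was the highest of its group for 9 of the 10 members and PTU replicate 1 the lowest for 8, and TH 24 h replicate 2 was the highest for 9. The genes most like the mean of the 9 tested members over the 12 libraries were Cyr61, Irs2, Yrdc, Sik1 and Zfp36 (Pearson r 0.88 to 0.90, from 14007 candidates). Spearman's rho was 0.69 to 0.94 for these 5 genes. As above, the points share library and composition.

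**Figure D4:**
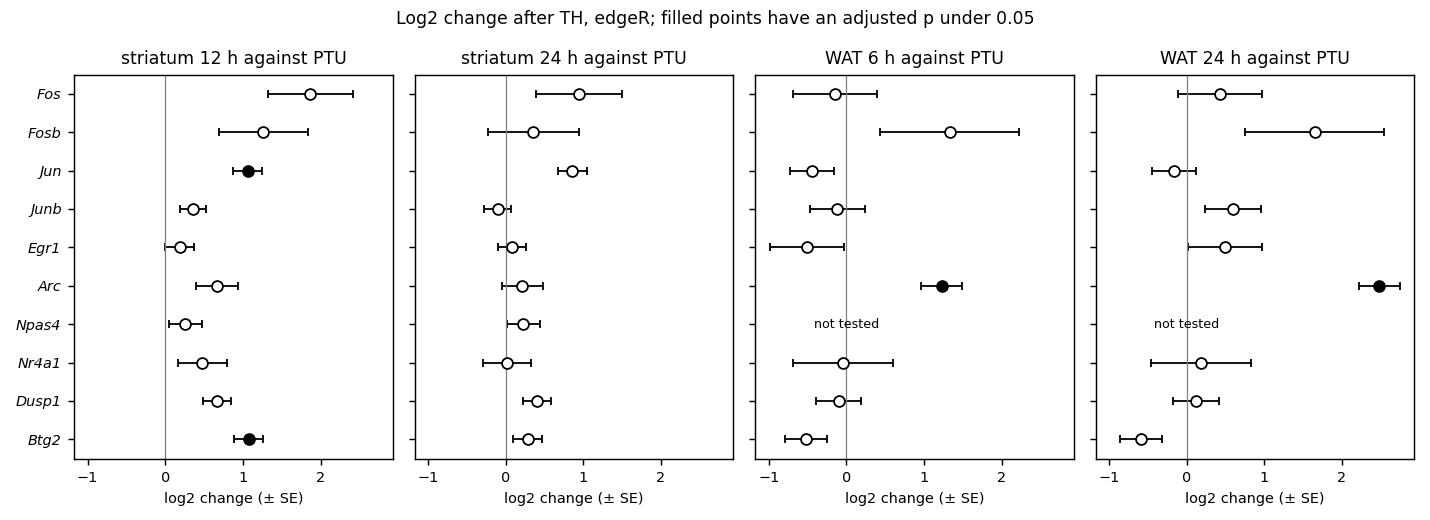
Log2 change ± SE of the 10 members against PTU in striatum at 12 and 24 h and in WAT at 6 and 24 h, with filled points for an adjusted p under 0.05 (edgeR). Jun and Btg2 in striatum at 12 h and Arc in WAT at both times are filled, and Npas4 was not tested in WAT.

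Among the relatives of the members in WAT, 1 of 18 tested genes passed as higher and 2 as lower at 6 h, beside 7.23% of all genes in either direction. Tob2, an antiproliferative relative of Btg2, rose by 1.30 ± 0.16 on the log2 scale, and Npas2, a clock factor, fell by 3.99 ± 0.33, from a mean of 247 to 15.6. Btg3 fell by 0.52 ± 0.12. At 24 h, 4 relatives passed as higher and 1 as lower, beside 17.1% of all genes. Fosl2, another AP-1 subunit, was higher by 1.29 ± 0.17, Tob2 by 0.83 ± 0.16 and Dusp10 by 0.92 ± 0.22, while Btg3 fell by 0.40 ± 0.12. Between 6 and 24 h, where 7.41% of all genes passed, the 4 relatives that rose included Npas2 (4.10 ± 0.33), Fosl2 (1.27 ± 0.17) and Dusp10 (0.91 ± 0.22), which had the lowest adjusted p, and Dusp16 fell by 0.47 ± 0.13. The other was Fosl1, an AP-1 subunit named here after its values were seen, which had the largest log2 change of the list at 24 h against PTU (5.05 ± 1.41) and against 6 h (4.94 ± 1.37). Its mean was 3.36 under PTU, 3.44 at 6 h and 109.9 at 24 h, and its groups overlapped.

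Of 36 tested other early response genes in WAT, 4 passed as higher and 1 as lower at 6 h, 5 as higher at 24 h and 2 as higher between the times, beside 7.23%, 17.1% and 7.41% of all genes in either direction. Pim1, a kinase gene, had a mean of 311 under PTU, 903 at 6 h and 1154 at 24 h, with log2 changes of 1.54 ± 0.20 and 1.89 ± 0.20. Trib1 (1.09 ± 0.27) and Per1 (1.38 ± 0.35) were also higher at 6 h, and Zfp36l1, which promotes mRNA decay, was lower (-0.57 ± 0.11). Myc (1.23 ± 0.18) and Maff (2.12 ± 0.41) were higher at 24 h, and Maff (1.71 ± 0.40) and Gadd45g (1.22 ± 0.33) rose between the times. The medians over this list were 0.08 and 0.36 at 6 and 24 h, beside -0.030 and -0.0020 over all genes tested.

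Upstream of the members, Ep300 (0.41 ± 0.10) and Rps6ka5 (0.60 ± 0.15) were higher and Rps6ka3 lower (-0.81 ± 0.11) at 6 h, out of 25 tested kinases and factors. At 24 h Rps6ka3 (-0.87 ± 0.11) and Mapk3, the kinase ERK1 (-0.55 ± 0.12), were lower and none was higher. Between the times Map2k2 rose by 0.35 ± 0.08 and Mrtfb, listed as Mkl2, fell by 0.70 ± 0.14. Over all genes, 7.23% passed at 6 h (4.18% as higher), 17.1% at 24 h (7.45% as higher) and 7.41% between the times. Of 15 partners and repressors, 4 passed as higher at each time. They included Rxrb, a dimer partner of nuclear receptors (0.57 ± 0.10 at 6 h and 0.60 ± 0.10 at 24 h), Nab1 (0.35 ± 0.09) and Arnt (0.35 ± 0.09) at 6 h, and Mapk14 (0.51 ± 0.12) and Jdp2 (0.42 ± 0.13) at 24 h. Rxra fell by 0.66 ± 0.15 between the times.

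Many of these calls depended on single libraries or on the fit. At 6 h, Npas2, Tob2, Zfp36l1, Pim1, Rxrb and Rps6ka3 passed in all 12 fits that left out a library, whereas the highest adjusted p was 0.0651 for Btg3, 0.0848 for Trib1, 0.0953 for Per1, 0.0785 for Nab1, 0.0891 for Arnt, 0.0874 for Ep300 and 0.0773 for Rps6ka5. At 24 h against PTU, Btg3 (0.100) and Jdp2 (0.109) lost their calls and the other named genes except Fosl1 kept theirs. Fosl1 was not followed in these fits, so whether its calls held is not known here. Between 6 and 24 h, Npas2, Fosl2 and Mrtfb kept theirs, and the highest adjusted p was 0.117 for Dusp16, 0.0868 for Dusp10, 0.0695 for Maff, 0.116 for Gadd45g, 0.0598 for Rxra and 0.0677 for Map2k2 (all edgeR). Under other settings, 12 calls of these related genes were lost with the muscle score as a term, among them Mrtfb (adjusted p = 0.0757, edgeR), 11 with the replicate block, 7 with no filter, 7 with the groups of the contrast alone (Ier5 in striatum included) and 5 with the leukocyte score.

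A direct comparison of the tissues was possible at 24 h only, since 6 h and 12 h were each sampled in 1 tissue. The change in WAT minus the change in striatum was tested over 12766 genes that passed the filter in both, of which 5.37% passed. Arc differed by 2.28 ± 0.39 (adjusted p = 0.00176, edgeR), with a log2 change of 2.48 in WAT and 0.21 in striatum, and it passed in all 14 fits that left out a library. For Jun the difference was -1.01 ± 0.40 (adjusted p = 0.152, edgeR) and for Btg2 -0.86 ± 0.41 (adjusted p = 0.234, edgeR). Without PTU replicate 1 of WAT these 2 passed along with Arc, in a fit in which 1072 of the 12766 genes passed, beside 686 with all libraries. The other 6 tested members differed by -0.50 for Fos to 1.30 for Fosb, with adjusted p of 0.446 or more. The methods list PTU in the food for WAT only, and Y-linked genes were nearly silent in all striatum libraries at 24 h. A difference between the tissues in this test cannot be told apart from these.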

How the data were processed

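RNA came from Trizol (WAT) or RNeasy (striatum) extraction. Lexogen SENSE total RNA libraries were sequenced on an Illumina instrument. The authors deposited raw read counts per gene symbol, 1 table per tissue. Per the study's methods and the submitters' processing notes, reads were aligned to mm10 with Bowtie2 (Galaxy 2.2.6.2), low-quality alignments were removed, counting used htseq-count and the authors tested with DESeq2. The annotation release and the strand setting are not given in the sources used here.

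Rows whose symbols had been turned into dates (14 in striatum, 15 in WAT, at most 0.201% of counts) were removed. Counts were scaled by TMM, only genes whose normalised count averaged more than 10 entered, and the 3 groups of a tissue were fitted in 1 model with the quasi-likelihood test of edgeR 4.0.16 in R 4.3.3, with Benjamini-Hochberg adjustment over all genes tested (15827 and 17928) and a threshold of 0.05. SE was derived from the log2 change and its F statistic. The fit was tested on simulated data. Npas4 in WAT was tested by exact permutation. Alternatives were the scaling and test of DESeq2 1.42.0, no filter, the groups of a contrast alone, each library left out, a replicate block, and composition scores or copied rows as terms or omissions. A skeletal muscle or leukocyte score is the mean log2 CPM of the list.

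The members and lists were chosen with earlier results of these data known. Of each related list, up to 3 genes per direction and comparison were named in order of adjusted p, and in each tissue the 5 genes most like the members' mean. Gene positions came from GENCODE M21 (GRCm38), promoters from RefSeq (GRCm38.p6).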

Additional observations from a re-analysis of the deposited data

Results flagged for a closer look

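In 4 of the 50 groups of 4 libraries examined for the 10 members, 1 library lay far from the other 3 by Dixon's criterion, which chance gives in about 1 group in 20. In WAT at 24 h, replicate 2 had 845 normalised counts of Junb against 258 to 312 in the others, and 1164 of Dusp1 against 811 to 858. In WAT at 6 h, replicate 1 had 333 of Junb against 230 to 247. Under PTU in WAT, replicate 2 had 32.3 of Arc against 47.8 to 50.9.

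Arc differed between tissues and between times. Its log2 change at 24 h was larger in WAT than in striatum by 2.28, and within WAT its level at 24 h exceeded that at 6 h by 1.25, each by a test of the difference itself (edgeR). The libraries of the tissues may also differ in PTU before TH, and they differ in Y-linked genes, as described above.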

How the results depend on the processing

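With 2 PTU libraries of striatum, calls there rested on few controls. The number of members called in striatum at 12 h against PTU was 2 as reported, 4 with DESeq2, with the 2 groups alone or with the cortical score as a term, 1 with the Y-linked library type as a term, and 1 with the cortical score and TH 24 h replicate 2 left out (chosen after seeing the data). At 24 h against PTU it was 1 rather than 0 with DESeq2, with no filter, and with the cortical score with or without that library. Between 24 and 12 h it was 1 with DESeq2 or no filter and 3 with the cortical score. In WAT between 24 and 6 h it was 0 with the muscle score. Leaving out each library gave 0 to 4, 0 to 0 and 0 to 1 in the 3 striatum comparisons, 0 to 2, 1 to 2 and 1 to 1 in WAT at 6 h, 24 h and between them, and 1 to 3 for the difference between tissues. The cause was not tested.

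Over all genes, the 152 calls in striatum at 12 h became 820 with DESeq2, 308 with no filter, 1442 with the 2 groups alone, 60 with the Y-linked type, 934 with the cortical score, and 253 with that score and the library left out. Leaving out 1 library gave 0 without PTU replicate 3, 1 without PTU replicate 6, 14, 6 and 55 without TH 12 h replicates 2, 3 and 4, 78 without TH 24 h replicate 4 and 1257 without TH 24 h replicate 2. The 55 at 24 h became 201, 104, 0, 3, 322 and 338 in these 6 settings and 0 to 115 with 1 library left out, and the 0 between 24 and 12 h became 228, 41, 0, 0, 826 and 26, and 0 to 78 with 1 library left out. In WAT the 1296 calls at 6 h became 2084 with DESeq2 and 834 with the 2 groups alone, the 3060 at 24 h became 2037 with the 2 groups alone, and the 1329 between the times became 2079 with DESeq2, 2444 with the 2 groups alone and 458 with the muscle score. The 686 for the difference between tissues became 243 with the 4 groups alone. With 1 library left out these counts ranged from 684 to 1898, 1957 to 4264, 661 to 2038 and 196 to 1072. In WAT, 86 rows repeated the counts of another row (6.09% of counts), none of them a member.

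Whether replicate numbers pair the libraries is not known. After group means were removed, correlations of same-numbered libraries were -0.40 to 0.27 in striatum and -0.47 to 0.39 in WAT. Differently numbered libraries were not set beside them, so these values cannot decide it. With a replicate block, members called were 0 in striatum between 24 and 12 h and 1 in each WAT comparison, Arc at 1.20, 2.46 and 1.26, while all calls became 7 in striatum between 24 and 12 h, and 886, 2312 and 778 in WAT instead of 1296, 3060 and 1329. No block could be fitted against PTU in striatum, where the groups share 1 number.

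Log2 changes that turned sign, none of them called, were in striatum Egr1 at 24 h (-0.040) and Npas4 between the times (0.15) with the Y-linked type, Fosb (-0.23) and Nr4a1 (-0.078) at 24 h with the cortical score, and -0.29 and -0.087 with that library also left out. In WAT they were Fos (0.092) and Nr4a1 (0.12) at 6 h with the block, Nr4a1 at 6 h (0.0066) and Btg2 between the times (0.074) with the muscle score, and Nr4a1 at 6 h (0.051) with the leukocyte score. Leaving out single libraries turned others. In striatum the ranges were -0.14 to 0.59 for Egr1 at 12 h, -0.25 to 0.48 for Egr1, -0.17 to 0.72 for Arc, -0.20 to 0.24 for Nr4a1 and -0.065 to 0.54 for Fosb at 24 h, and -0.21 to 0.064 for Npas4 between the times. In WAT they were -0.57 to 0.18 for Fos, -0.27 to 0.14 for Junb, -0.77 to 0.20 for Egr1, -0.53 to 0.38 for Nr4a1 and -0.33 to 0.13 for Dusp1 at 6 h, -0.17 to 0.60 for Nr4a1, -0.13 to 0.35 for Dusp1 and -0.38 to 0.024 for Jun at 24 h, and -0.17 to 0.083 for Btg2, -0.44 to 1.12 for Fosb and -0.13 to 0.70 for Nr4a1 between the times. For the difference between tissues they were -0.17 to 0.61 for Nr4a1 and -0.83 to 0.038 for Fos.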
